A study of Mus musculus with 11 samples.

Results

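The mitochondrial ribosomal protein genes are the nuclear genes for the proteins of the ribosome inside mitochondria, named Mrpl for the large subunit and Mrps for the small subunit. They were taken by symbol, as every gene whose name is Mrpl or Mrps followed by a number and at most a letter suffix. This gave 76 of the 12787 genes in the deposited table, 47 named Mrpl and 29 named Mrps. RefSeq holds 78 symbols of this form for the mouse. Of these, 76 were measured under the same symbol, 1 (Mrpl58) stood in the table under its older symbol Ict1 and is described with the related genes, and 1 (Mrpl23) was not analysed here. The rule reads the symbol alone.

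RNA was sequenced from the gonadal white adipose tissue (WAT) of 11 male mice of strain C57Bl6/J, with 1 library per mouse. All 11 mice ate a 60% high fat diet (HFD) for 20 weeks. The diet of 6 of them also held 0.06% w/w iodomethylcholine (IMC), which blocks the bacterial enzyme CutC that cleaves choline to trimethylamine in the gut, and the other 5 were HFD controls given vehicle. By the labels the groups differ in IMC, and the comparison describes gene expression in fat with and without it. The study reports that in mice on a high fat diet IMC also reduced weight gain and fat mass and altered the gut microbes. Blocking the enzyme cannot be told apart from these differences here. Neither the age of the mice nor a sequencing batch is given in the labels, and every value is from bulk tissue of wild type mice.

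The mitochondrial ribosome translates the messenger RNAs of the mitochondrial genome, which encode core subunits of the respiratory chain and of ATP synthase. Its own RNAs come from the mitochondrial genome, whereas its proteins are encoded in the nucleus, made by cytosolic ribosomes and imported. Some of these proteins have counterparts in bacterial ribosomes and others are found only in mitochondria. In adipocytes, mitochondria provide ATP and the citrate used for fatty acid synthesis.

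Levels are given as log2 CPM, the log2 of read counts scaled to a common library size (CPM, by upper quartile). Reads on listed genes numbered 22320022 to 25155366 per library. The members had a median of 614 reads per mouse, from 23.5 for Mrps36 and 98.3 for the next lowest up to 1874 for Mrps6, and 75 of 76 reached 1 CPM in every mouse. The tissue carried high levels of the adipocyte marker Adipoq, between 9.42 and 10.13 log2 CPM in HFD mice and between 10.59 and 11.18 in IMC-treated mice. Marker lists of cell types are set beside the share of all genes called by the test described below, 40.9% (20% higher and 21% lower). For several lists the summed levels did not overlap between the groups. Of 17 adipocyte markers, 15 were higher and none lower with IMC, and their summed level ran from 29005 to 33812 CPM in HFD mice and from 41510 to 46912 CPM in IMC-treated mice. Of 20 macrophage markers, 18 were lower and none higher, with sums from 22120 to 28256 CPM against 12184 to 18552 CPM. The 6 mast cell markers were all lower, with sums from 502 to 1149 CPM against 160 to 323 CPM, and 4 of 7 fibroblast markers were lower, with sums from 4650 to 5344 CPM against 3463 to 4229 CPM. Of 10 muscle markers 3 were listed, all 3 of them higher, with sums from 16.3 to 25.3 CPM against 38.5 to 68.5 CPM. Of 7 brown or beige adipocyte markers 5 were listed and 2 higher (40%, near the 40.9% of all genes). Their sums ran from 14.8 to 19.97 CPM against 20.4 to 30.7 CPM. Each of these markers taken singly overlapped between the groups, and the lowest log2 fold change among them was -0.35. The endothelial markers (1 of 7 higher, 381 to 536 CPM against 461 to 616 CPM), mesothelial markers (1 of 5 listed lower, 225 to 310 CPM against 104 to 253 CPM) and lymphocyte markers (0 of 2 listed called, 4.15 to 12.9 CPM against 3.21 to 8.26 CPM) overlapped between the groups. No listed marker was at 0 reads in any mouse. The part of these lists in the results on the mitochondrial ribosome was not tested.

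Most mitochondrial ribosomal protein genes were at nearly the same level in both groups, and those that changed did so by small amounts and in both directions. Genes were compared with limma on the log2 CPM values, with Benjamini-Hochberg adjustment over all 12787 genes, and called at an adjusted p below 0.05. Of the 76 members, 11 were higher in IMC-treated mice and 7 were lower, while 58 were not called. Thus 23.7% of the members were called, beside 40.9% of all genes. Of all genes, 20% were called higher and 21% were called lower. The count of lower members rested on single mice, as it was 3 without HFD mouse 1 and 4 without HFD mouse 3 or IMC mouse 5. An unadjusted p below 0.05 was reached by 21 members. The log2 levels of the groups did not overlap for 6 members, 5 higher and 1 lower, or 7.89%, beside 23.1% of all genes. These shares are set side by side as a description and the difference between them was not tested. Because the tissue is a mixture, a lower value can come from fewer cells of a type or from less RNA per cell, and these cannot be told apart here.

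The size of the changes was narrow. The median log2 fold change was 0.03 over the members, with quartiles of -0.04 and 0.09, and it was -0.03 over all genes, with quartiles of -0.19 and 0.15. Scaling by total reads turned the median of the members to -0.0068 and moved that of all genes to -0.06. Single mice moved it too, to 0.0018 without IMC mouse 6, 0.01 without HFD mouse 3, 0.02 without HFD mouse 2 or IMC mouse 1, 0.04 without IMC mouse 4 and 0.06 without IMC mouse 5. The members ran from -0.28 for Mrpl52 to 0.56 for Mrps6, and 43 of the 76 were above 0. An absolute log2 fold change above 0.25, which is a fold of 1.19, was seen in 6 members, and above 0.5, a fold of 1.41, in 1 member, Mrps6. Among all genes these counts were 4655 and 1689. The median of the absolute log2 fold change was 0.08 over the members and 0.17 over all genes. Precision allowed small changes to be bounded. The 95% interval of the log2 fold change lay within 0.5 of 0 for 73 of the 76 members (96.1%) and for 66.0% of all genes. Of the 58 members not called, 45 had an interval within 0.25 of 0 and 57 within 0.5. The exception was Mrps36, the member with the fewest reads.

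**Figure D1:**
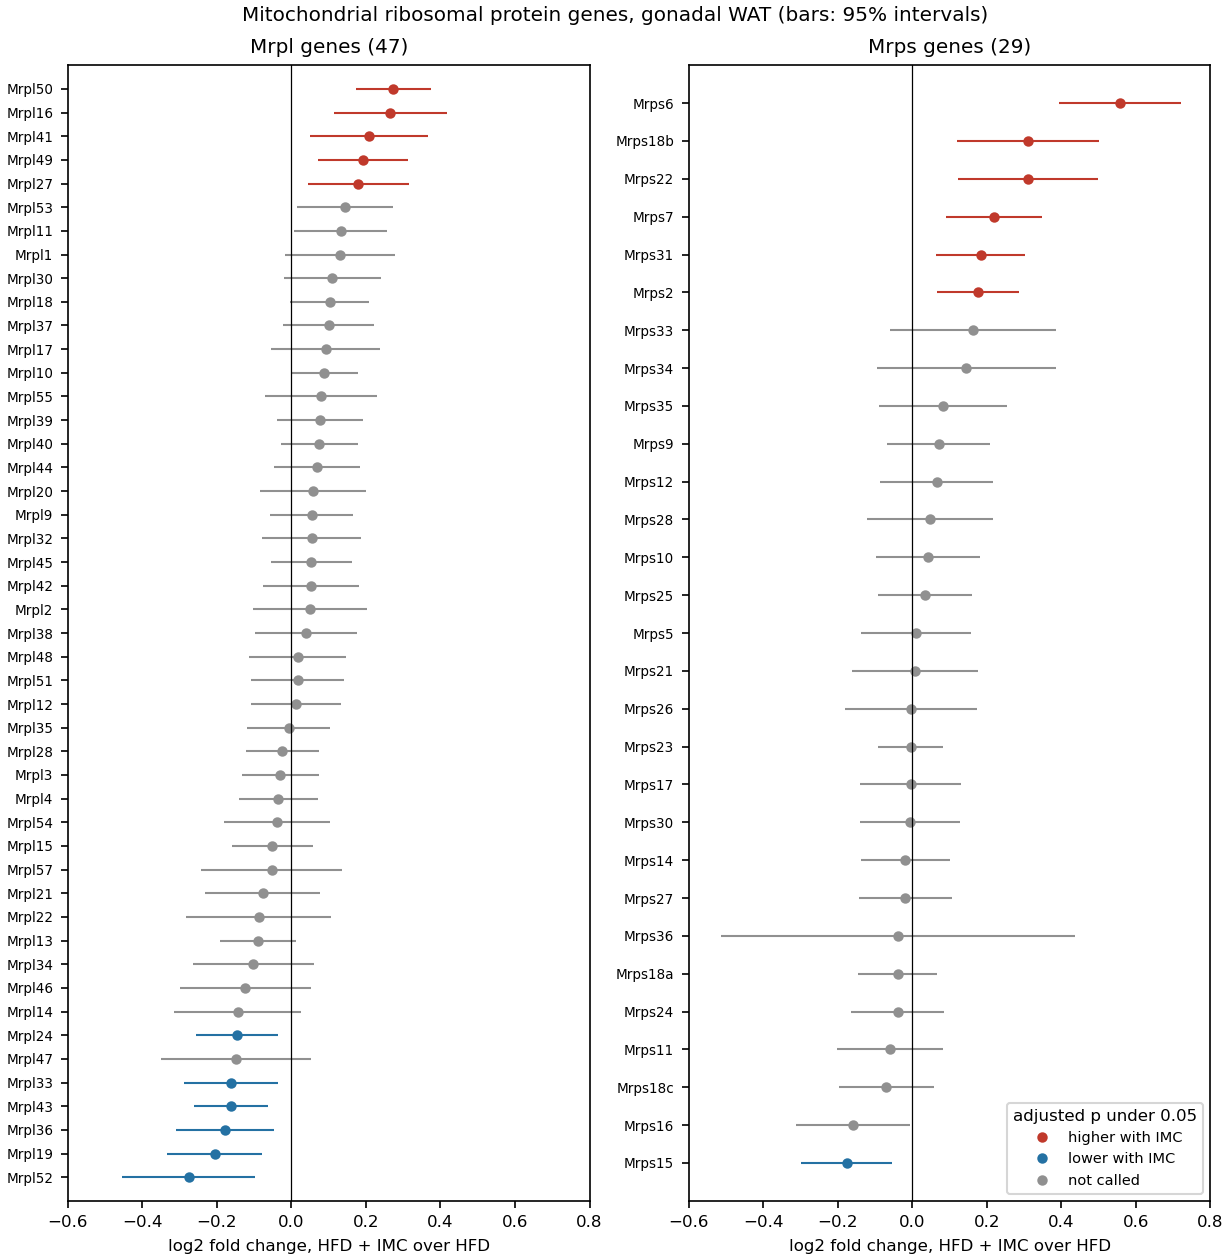
Log2 fold change (x axis, HFD + IMC over HFD) of each of the 47 Mrpl and 29 Mrps genes, ranked, with points for the estimate and bars for its 95% interval, coloured by the limma call. Most intervals cross 0, 11 members lie to the right and 7 to the left of 0 with an adjusted p below 0.05, and Mrps6 stands farthest from 0 at 0.56.

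The calls were split over both subunits. Of the 47 Mrpl genes, 5 were higher and 6 were lower, with a median log2 fold change of 0.04. Of the 29 Mrps genes, 6 were higher and 1 was lower, with a median of 0.0088. Thus 23.4% of the Mrpl and 24.1% of the Mrps genes were called. Of all genes, 40.9% were called, 20% higher and 21% lower. The Mrpl count higher was 3 without HFD mouse 3, IMC mouse 1, IMC mouse 2 or IMC mouse 6, and the Mrpl count lower was 3 without HFD mouse 1 or IMC mouse 5. Symbols do not always follow the structure, because Mrps18a and Mrps30 encode proteins of the large subunit and Mrps36 encodes a component of the alpha-ketoglutarate dehydrogenase complex. Placed by structure, 5 of 49 large subunit genes were higher and 6 lower, and 6 of 26 small subunit genes were higher and 1 lower. By the structural name of the protein, 5 of the 45 genes with a name shared with bacterial ribosomes (prefix b or u) were higher and 5 lower, and 6 of the 30 genes with a mitochondrial name (prefix m, which includes Mrps18a and Mrps18b) were higher and 2 lower. The share called was 22.4% of the large and 26.9% of the small subunit genes. It was 22.2% for names shared with bacteria and 26.7% for mitochondrial names. All of these lie below the 40.9% of all genes. Whether these splits differ from each other was not tested.

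No common shift of the family separated the groups. Each member was expressed as its deviation from its own mean over the 11 mice, and the median deviation over the 76 members was taken in each mouse. The 5 HFD mice had medians of 0.0023, -0.05, -0.03, -0.03 and 0.05 log2 CPM. In the 6 IMC-treated mice the medians ran from -0.07 through 0.0038 to 0.08. The groups overlapped along the whole HFD range, and both extremes were IMC-treated mice. IMC mouse 5 had 9 of the 76 members above their own mean, whereas IMC mouse 6 had 63 and IMC mouse 1 had 62. Among the HFD mice this count ran from 16 in mouse 2 to 55 in mouse 5. The group means of the median deviation differed by 0.02 log2 CPM, below the SD between mice of 0.04 in HFD mice and 0.06 in IMC-treated mice. The summed level of the members was 2160 to 2310 CPM in HFD mice and 2123 to 2427 CPM in IMC-treated mice. They took 0.219% to 0.234% of the reads on listed genes in HFD mice and 0.211% to 0.241% in IMC-treated mice.

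**Figure D2:**
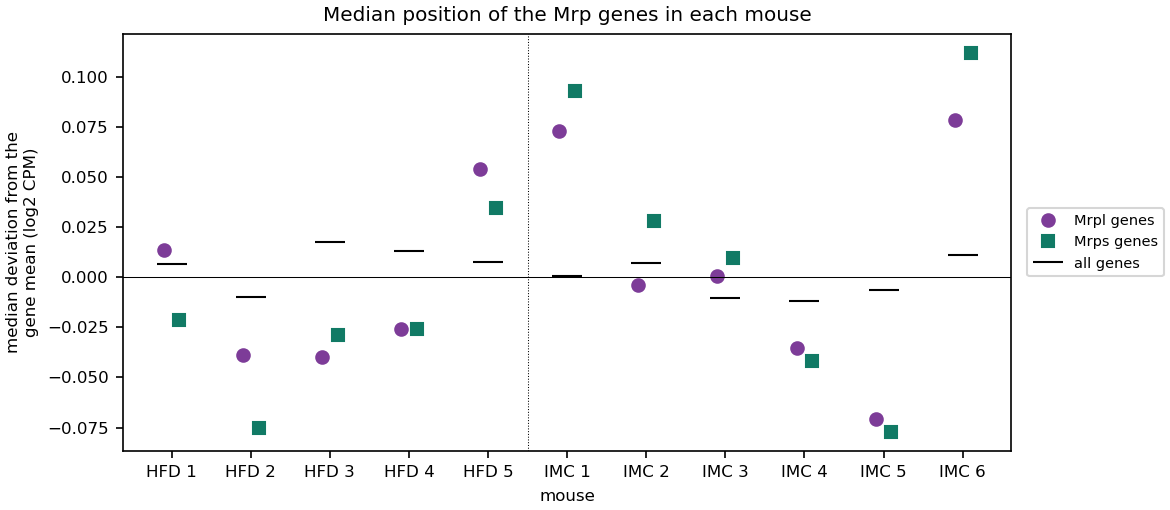
Median deviation of the Mrpl genes (circles), the Mrps genes (squares) and all genes (dashes) from the mean of each gene over the 11 mice (y axis, log2 CPM), for each mouse (x axis). The Mrpl and Mrps medians lie close together in most mice, the groups overlap, and the highest and lowest medians both belong to IMC-treated mice.

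Mrps6 changed the most. It encodes the small subunit protein bS6m, the counterpart of bacterial S6, and lies on chr16:92058336-92112227 (plus strand, GRCm38). Its levels in the 5 HFD mice were 5.95, 6.04, 5.83, 5.88 and 6.21 log2 CPM. In the 6 IMC-treated mice the lowest, median and highest were 6.37, 6.53 and 6.72. The lowest IMC-treated mouse was thus above the highest HFD mouse. The log2 fold change was 0.56, or 1.47-fold (adjusted p = 0.000145 by limma, Benjamini-Hochberg, SE 0.08). A two-sided exact permutation test over the 462 splits of the mice gave p = 0.00216, the smallest value that it can give. Per kilobase of its principal transcript, Mrps6 also had the highest level of all members, 94.2 CPM per kb.

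Mrps6 shares its start with another gene, which limits this value. In GENCODE annotation, 159 exonic bases of Mrps6 lie on the same strand as exons of Slc5a3, the gene of a sodium-coupled myo-inositol transporter. In RefSeq both genes run on the plus strand of chromosome 16 from starts that are 14 bases apart, and reads in the shared bases cannot be given to either gene by position alone. Slc5a3, named here for this overlap after its values were seen, measured 6.38, 6.56, 6.20, 6.09 and 6.38 log2 CPM in the HFD mice. Its lowest, median and highest levels in IMC-treated mice were 6.87, 6.98 and 7.05, so these groups did not overlap either. The log2 fold change of Slc5a3 was 0.65 (adjusted p = 4.54e-05, limma, Benjamini-Hochberg, SE 0.07). How many of the Mrps6 reads came from the shared bases was not tested. The 250 bases before the Mrps6 start are shown because the start of both genes lies at their 3′ end. They are the plus strand of chr16:92058086-92058335 (GRCm38.p6, sequence from RefSeq), written 5′ to 3′, and hold none of the motifs searched for.
Mrps6 upstream: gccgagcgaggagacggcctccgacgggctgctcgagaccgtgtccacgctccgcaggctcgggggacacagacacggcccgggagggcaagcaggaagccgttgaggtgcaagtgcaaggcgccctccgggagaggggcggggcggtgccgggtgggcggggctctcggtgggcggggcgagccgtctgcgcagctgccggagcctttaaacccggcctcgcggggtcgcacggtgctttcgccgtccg

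The 3 paralogs Mrps18a, Mrps18b and Mrps18c, which all descend from bacterial S18 but occupy different places in the mitochondrial ribosome, did not share a result. Mrps18b encodes mS40 of the small subunit and lies on chr17:35910380-35916440 (minus strand). Its levels were 3.72, 3.65, 3.44, 3.44 and 3.66 log2 CPM in HFD mice. Its lowest, median and highest levels in IMC-treated mice were 3.66, 3.88 and 4.11. Only the lowest IMC-treated mouse, mouse 5, fell within the HFD range. Mrps18b was higher with IMC by 0.31 on the log2 scale, or 1.24-fold (adjusted p = 0.0136, limma, Benjamini-Hochberg, SE 0.09). Mrps18a, on chr17:46111004-46128908, encodes mL66 of the large subunit. It measured 5.10, 4.98, 5.04, 5.04 and 5.06 in HFD mice and 4.88, 5.03 and 5.08 as the lowest, median and highest of the IMC-treated mice, and its groups overlapped. Its log2 fold change of -0.04 was not called (95% interval -0.15 to 0.07, adjusted p = 0.556 by limma). Mrps18c, on chr5:100798759-100804467, encodes bS18m of the small subunit and had levels of 4.46, 4.42, 4.40, 4.43 and 4.32 in HFD mice. The lowest, median and highest IMC-treated mice were at 4.21, 4.33 and 4.51, with a log2 fold change of -0.07 (95% interval -0.20 to 0.06, adjusted p = 0.371 by limma). The intervals of Mrps18a and Mrps18c both lie below the estimate of Mrps18b, while differences between the paralogs were not tested themselves.

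The upstream sequences of the 3 paralogs are shown to let their starts be compared. Each line is the 250 bases before the RefSeq start, written 5′ to 3′ on the strand of the gene, and capitals mark a match to a motif on either strand. The windows are chr17:46110754-46111003 (plus strand), chr17:35916441-35916690 (minus strand) and chr5:100798509-100798758 (plus strand) of GRCm38.p6. Mrps18b holds the NRF1 motif GCATGCGC, and the windows of Mrps18a and Mrps18c hold the GABPA motif CCGGAAG, in Mrps18c on the opposite strand.
Mrps18a upstream: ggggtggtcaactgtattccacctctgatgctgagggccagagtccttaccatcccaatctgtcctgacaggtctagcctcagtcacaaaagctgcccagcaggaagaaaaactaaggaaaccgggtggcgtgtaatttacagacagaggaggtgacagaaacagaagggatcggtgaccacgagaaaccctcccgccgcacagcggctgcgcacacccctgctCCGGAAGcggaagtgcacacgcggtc
Mrps18b upstream: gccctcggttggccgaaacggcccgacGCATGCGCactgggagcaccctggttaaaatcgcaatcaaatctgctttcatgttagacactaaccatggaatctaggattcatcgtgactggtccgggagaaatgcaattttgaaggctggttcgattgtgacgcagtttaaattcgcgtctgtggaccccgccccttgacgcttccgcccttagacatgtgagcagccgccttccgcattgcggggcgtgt
Mrps18c upstream: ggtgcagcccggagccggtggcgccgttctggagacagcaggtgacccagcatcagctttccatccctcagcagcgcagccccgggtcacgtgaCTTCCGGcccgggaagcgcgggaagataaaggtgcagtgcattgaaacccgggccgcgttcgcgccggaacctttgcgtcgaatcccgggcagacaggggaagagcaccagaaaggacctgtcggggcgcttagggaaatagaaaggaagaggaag

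Among the other small subunit genes, 4 were higher and 1 was lower with IMC. Mrps22, on chr9:98588730-98601679, encodes the mitochondria-specific protein mS22. Its levels were 4.11, 4.15, 4.10, 4.17 and 4.32 log2 CPM in HFD mice and 4.25, 4.44 and 4.77 as the lowest, median and highest in IMC-treated mice. The ranges touched, since the highest HFD mouse exceeded the lowest IMC-treated mouse. Mrps22 rose by 0.31 on the log2 scale (adjusted p = 0.0123, limma, Benjamini-Hochberg, SE 0.09).

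Mrps7, on chr11:115604140-115608036, encodes uS7m, the counterpart of the bacterial S7 protein that organises the head of the subunit. HFD mice had 5.69, 5.69, 5.70, 5.61 and 5.89 log2 CPM, and the lowest, median and highest IMC-treated mice had 5.83, 5.92 and 6.07. HFD mouse 5 was the highest of its group and lay inside the IMC range, and the log2 fold change was 0.22 (adjusted p = 0.0109 by limma). Mrps7 overlaps Gga3 and Mif4gd on the opposite strand, and these changed by -0.31 (lower) and 0.23 (higher) on the log2 scale. They are named for the overlap after their values were seen, and the strand setting of the count is not given in the sources used here.

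Mrps2, on chr2:28465951-28471177, encodes uS2m, also shared with bacteria. Its HFD levels of 4.81, 4.81, 4.84, 4.70 and 4.87 log2 CPM lay wholly below the IMC-treated mice, whose lowest, median and highest were 4.90, 4.99 and 5.06. Mrps2 rose by 0.18 on the log2 scale (adjusted p = 0.0155 by limma, SE 0.05, exact permutation p = 0.00216). Mrps31, which encodes the mitochondria-specific mS31, falls outside the rule for named genes and was added after its values were seen. Its groups did not overlap, with HFD levels of 3.83, 3.87, 3.85, 3.79 and 3.87 log2 CPM and IMC levels of 3.93, 4.03 and 4.12 (lowest, median and highest). Mrps31 rose by 0.18 (adjusted p = 0.0194 by limma).

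Mrps15 was the Mrps gene that fell. It lies on chr4:126046928-126055536 and encodes uS15m, the counterpart of bacterial S15, which binds ribosomal RNA early in assembly. HFD mice measured 5.16, 4.97, 5.09, 5.02 and 5.11 log2 CPM and IMC-treated mice 4.77, 4.89 and 5.01 (lowest, median and highest), with overlap. The log2 fold change was -0.18 (adjusted p = 0.0243 by limma, SE 0.06). It was no longer called when HFD mouse 1, HFD mouse 3 or IMC mouse 2 was left out, with adjusted p by limma of 0.0654, 0.0550 and 0.0540, which leaves no Mrps gene called lower in these fits.

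Of the large subunit genes that rose, Mrpl50 and Mrpl16 had the clearest separation. Mrpl50, on chr4:49512597-49521083 (minus strand), encodes the mitochondria-specific mL50. The HFD mice had 5.21, 5.33, 5.19, 5.29 and 5.28 log2 CPM and the IMC-treated mice 5.46, 5.52 and 5.64 (lowest, median and highest), without overlap. Mrpl50 rose by 0.27 on the log2 scale, or 1.21-fold (adjusted p = 0.000657 by limma, SE 0.05, exact permutation p = 0.00216). Mrpl16, on chr19:11770415-11774956 (plus strand), encodes uL16m, whose bacterial counterpart L16 lies beside the peptidyl transferase centre. Levels were 4.50, 4.58, 4.43, 4.64 and 4.60 log2 CPM in HFD mice and 4.65, 4.79 and 5.01 (lowest, median and highest) with IMC, and the lowest IMC-treated mouse stood just above the highest HFD mouse. Mrpl16 rose by 0.27 on the log2 scale (adjusted p = 0.00927 by limma, SE 0.07, exact permutation p = 0.00433). Neither gene shares exonic bases with another annotated gene.

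Mrpl49, on chr19:6053630-6057755, encodes the mitochondria-specific mL49. It measured 5.11, 5.12, 5.11, 4.98 and 5.22 log2 CPM in HFD mice and 5.19, 5.33 and 5.39 (lowest, median and highest) in IMC-treated mice, which overlapped, and rose by 0.19 (adjusted p = 0.0154 by limma). Mrpl27 and Mrpl41 complete the large subunit genes called higher, and both were added after their values were seen. Mrpl27 encodes bL27m, which reaches into the peptidyl transferase centre in bacteria, and its log2 fold change was 0.18 (adjusted p = 0.0359 by limma). Mrpl41 encodes the mitochondria-specific mL41, with a log2 fold change of 0.21 (adjusted p = 0.0376 by limma). Of the 11 fits that each left out 1 mouse, Mrpl27 was called in 6 and Mrpl41 in 3. With total read scaling neither was called (adjusted p = 0.0821 for Mrpl27 and 0.0734 for Mrpl41 by limma).

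The lower large subunit genes were led by Mrpl43 and Mrpl52. Mrpl43, on chr19:45005014-45006442 (minus strand), encodes the mitochondria-specific mL43 and was the member called lower whose groups did not overlap. Its levels were 5.03, 4.91, 4.94, 5.00 and 5.03 log2 CPM in HFD mice. The IMC-treated mice had 4.77, 4.82 and 4.89 as lowest, median and highest, so the highest IMC-treated mouse lay just below the lowest HFD mouse. For Mrpl43 the log2 fold change was -0.16, or 0.894-fold (adjusted p = 0.0138 by limma, SE 0.05, exact permutation p = 0.00433). Its upstream window, chr19:45006443-45006692 of GRCm38.p6, is shown because it holds 2 copies of the GABPA motif, in capitals, and beside it stands the window of Mrpl50, chr4:49521084-49521333, which holds none of the motifs. Both are on the minus strand and written 5′ to 3′ on it, from RefSeq. Other named members go the other way. The window of Mrps22, called higher, holds the GABPA motif, and that of Mrpl24, called lower, holds none of the motifs. Whether the motif goes with the direction of change was not tested.
Mrpl43 upstream: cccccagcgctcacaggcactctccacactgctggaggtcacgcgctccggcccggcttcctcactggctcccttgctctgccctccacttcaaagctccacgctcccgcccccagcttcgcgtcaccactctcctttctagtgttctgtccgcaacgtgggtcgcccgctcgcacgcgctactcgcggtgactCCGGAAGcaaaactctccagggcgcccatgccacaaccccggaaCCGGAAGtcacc
Mrpl50 upstream: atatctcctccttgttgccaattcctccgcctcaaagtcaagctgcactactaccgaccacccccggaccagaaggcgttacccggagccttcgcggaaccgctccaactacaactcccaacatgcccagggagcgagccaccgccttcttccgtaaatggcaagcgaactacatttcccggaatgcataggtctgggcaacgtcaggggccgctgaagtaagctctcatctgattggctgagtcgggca

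Mrpl52, on chr14:54426909-54429750, encodes the mitochondria-specific mL52 and fell the most. It measured 4.54, 4.48, 4.64, 4.67 and 4.75 log2 CPM in HFD mice and 4.16, 4.28 and 4.54 (lowest, median and highest) in IMC-treated mice. IMC mice 1 and 6 lay inside the HFD range and the other 4 below it. The log2 fold change was -0.28, or 0.826-fold (adjusted p = 0.0176 by limma, SE 0.08). Mrpl19, on chr6:81957826-81965949, encodes bL19m, which in bacteria contacts the small subunit. Its HFD levels were 4.77, 4.53, 4.77, 4.71 and 4.58 log2 CPM and its IMC levels 4.40, 4.48 and 4.53 (lowest, median and highest), with a log2 fold change of -0.21 (adjusted p = 0.0143 by limma). The groups barely overlapped, with the highest IMC-treated mouse just above HFD mouse 2. Of its exonic bases, 1962 lie opposite Gcfc2. Gcfc2 is named for this overlap and had a log2 fold change of -0.28 (adjusted p = 0.0160 by limma). How reads in the shared bases were counted was not tested.

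The calls of Mrpl36, Mrpl24 and Mrpl33 depended on single mice. Mrpl36, on chr13:73328503-73332178, encodes bL36m, a small zinc-binding protein in bacteria, and its levels were 4.91, 4.71, 4.66, 4.71 and 4.76 log2 CPM in HFD mice and 4.45, 4.59 and 4.66 (lowest, median and highest) with IMC. Its log2 fold change was -0.18 (adjusted p = 0.0333 by limma), called in 7 of the 11 fits that left out a mouse. Mrpl24, on chr3:87918131-87923450, encodes uL24m, which stands near the exit of the peptide tunnel in bacteria, and 594 of its exonic bases lie opposite Rrnad1. HFD mice had 6.18, 6.06, 6.06, 6.07 and 6.12 log2 CPM and IMC-treated mice 5.85, 5.95 and 6.07 (lowest, median and highest), with overlap, and the log2 fold change was -0.15 (adjusted p = 0.0367 by limma), called in 4 of these 11 fits. Mrpl33, on chr5:31613951-31622644, encodes bL33m and in GENCODE shares exonic bases with 1 other gene on the same strand. It measured 5.63, 5.50, 5.58, 5.66 and 5.51 log2 CPM in HFD mice and 5.21, 5.42 and 5.53 (lowest, median and highest) in IMC-treated mice, with IMC mouse 5 well below the others. Its log2 fold change was -0.16 (adjusted p = 0.0419 by limma), called in 4 of the 11 fits. Without the trend of variance on level, neither Mrpl24 nor Mrpl33 was called (adjusted p = 0.0514 and 0.0541 by limma).

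**Figure D3:**
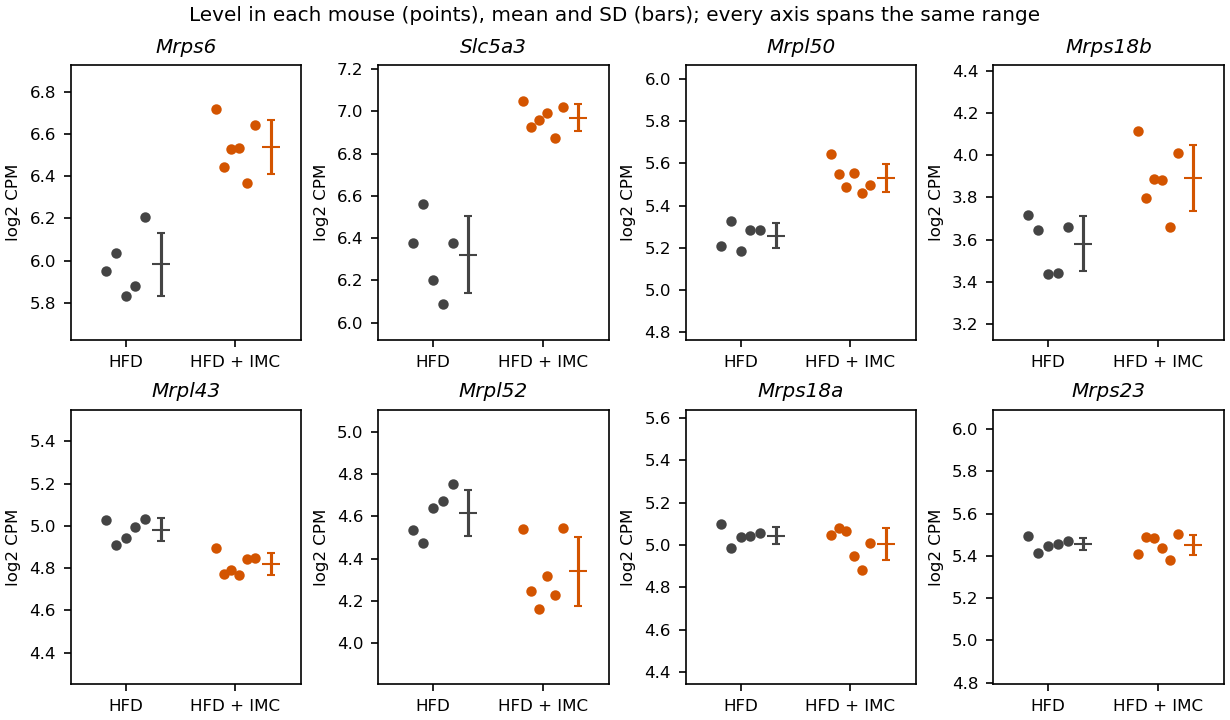
Log2 CPM (y axes, all of the same span) of 8 genes in each of the 5 HFD and 6 HFD + IMC mice (points), with the mean and SD of each group (bars). Mrps6, its neighbour Slc5a3 and Mrpl50 lie higher and Mrpl43 lower in every IMC-treated mouse, Mrps18b and Mrpl52 overlap between the groups, and Mrps18a and Mrps23 show nearly level means.

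The smallest differences were in Mrps26, Mrps23 and Mrps17, 3 proteins of the small subunit. Mrps23, on chr11:88194106-88211507, encodes mS23 and was among the most even of the members, at 5.49, 5.41, 5.45, 5.45 and 5.47 log2 CPM in HFD mice and 5.38, 5.46 and 5.50 (lowest, median and highest) in IMC-treated mice. Its log2 fold change was -0.0046, with a 95% interval of -0.09 to 0.08, which leaves room for no more than small changes. The estimate for Mrps17, which encodes uS17m, was -0.0047 (95% interval -0.14 to 0.13), and that for Mrps26, which encodes mS26, was -0.0034 (95% interval -0.18 to 0.17). Mrps30, the large subunit protein mL65 despite its symbol, had a log2 fold change of -0.0073 (95% interval -0.14 to 0.13). Mrps36 could be bounded least, at 17 to 33 reads per mouse, with HFD levels of 0.13, 0.28, -0.47, -0.38 and 0.50 log2 CPM and IMC levels of -0.32, -0.08 and 0.34 (lowest, median and highest). Its estimate was -0.04 with an interval of -0.51 to 0.44, so a change of moderate size was not detectable at this depth.

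Levels were not even across the family. Divided by the length of the principal transcript in GENCODE, the mean over the 11 mice had a median of 21.8 CPM per kb over the members. The highest were Mrps6 at 94.2, Mrpl33 at 94.1 and Mrpl20, which encodes bL20m, at 89.3 CPM per kb. Mrps6 and Mrpl33 share exonic bases with another gene on the same strand, and how far shared reads add to their levels was not tested. The lowest were Mrps36 at 1.45, Mrpl47, which encodes uL29m, at 2.23 and Mrps5, which encodes uS5m, at 2.61 CPM per kb. The annotated lengths of Mrpl47 and Mrps5 are 3364 and 4481 bases. For Mrps26 the length used, 4278 bases, exceeds its whole RefSeq span of chr2:130563757-130565394. The length also exceeds the RefSeq span for Mrpl32, Mrpl51, Mrpl57 and Mrps16, named here for their lengths alone. Values per kb thus depend on the annotation, and whether the annotated transcripts of the members are the ones used in this tissue was not tested. Mrpl20, Mrpl47 and Mrps5 were not called between the groups, with log2 fold changes of 0.06, -0.15 and 0.0088.

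Many members lie against another gene. In GENCODE, 32 of the 76 share exonic bases with another gene, 8 of them with one on the same strand, and 10 of the 18 called members are among the 32. These 10 are Mrps6 and Mrpl33 on the same strand as the other gene. On the opposite strand they are Mrps7, Mrps18b, Mrpl19, Mrpl24, Mrpl27, Mrpl36, Mrpl43 and Mrpl49. Of the 44 members with no such overlap, 6 were higher and 2 were lower with a median log2 fold change of 0.05, and of the 32 with an overlap, 5 were higher and 5 were lower with a median of -0.0054. The share called was 18.2% of the 44 and 31.25% of the 32, beside 40.9% of all genes. The members lie on 17 chromosomes.

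The 250 bases before the start were searched for short motifs of factors known to act on nuclear genes for mitochondrial proteins, with both strands read. RefSeq gave 73 windows for 67 of the 76 members. The GABPA (ETS) motif CCGGAAG was in 17 of the 73 windows (23.3%), in 6.91% of all 32851 promoter windows and in 13.0% of the 12440 windows of genes listed in these data. The NRF1 motif GCATGCGC was in 8 windows (10.96%), against 2.26% of all windows and 4.17% of those of listed genes. The YY1 motif AAGATGGCG was in 2 (2.74%, against 0.606% and 1.14%), and the ESRRA motif AAGGTCA was in 3 (4.11%, against 4.08% and 2.85%). The GABPA motif was in 2 of 11 windows of members called higher, 2 of 6 of those called lower and 13 of 56 of those not called. The NRF1 motif was in 1, 1 and 6 of the same windows. For the YY1 motif these counts were 0, 1 and 1, and for the ESRRA motif 0, 2 and 1. Of the 7 members called lower, 6 had a window. A match is a run of letters and not a bound site, and none of the motifs holds another within its letters. The factors themselves were not called between the groups, with log2 fold changes of -0.11 for Nrf1, 0.0084 for Gabpa, -0.03 for Yy1 and -0.08 for Esrra (adjusted p = 0.147, 0.925, 0.663 and 0.216 by limma). Of 9 listed regulators of mitochondrial genes, 1 was lower and none higher (11.1% called, beside 40.9% of all genes). That 1 was Myc, a transcription factor that drives growth and ribosome production, at -0.44 (adjusted p = 0.000610 by limma, Benjamini-Hochberg).

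Proteins of the same ribosome with other symbols showed small differences too. Of the 6 listed, 2 were higher and none lower (33.3% called, beside 40.9% of all genes). Ptcd3, an RNA-binding pentatricopeptide repeat protein of the small subunit, ran from 4.88 to 5.06 log2 CPM in HFD mice and from 5.04 to 5.28 in IMC-treated mice, and rose by 0.20 (adjusted p = 0.00972 by limma). Dap3, a GTP-binding protein of the small subunit, ran from 5.49 to 5.76 and from 5.65 to 5.91 and rose by 0.20 (adjusted p = 0.0167 by limma). Both overlapped between the groups. Gadd45gip1, Aurkaip1, Chchd1 and the release factor Ict1, which is Mrpl58, were not called, at -0.17, -0.08, -0.15 and 0.01 on the log2 scale.

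The factors that build and serve the mitochondrial ribosome were called in shares below the 40.9% of all genes. Of 31 assembly factors, 1 was higher and 5 were lower (19.4% called), with a median log2 fold change of 0.02. The pseudouridine synthase Rpusd4 changed by -0.29, the GTPase Gtpbp6 by -0.28 and the small subunit factor Mettl17 by -0.29, whereas Grsf1, a protein of the mitochondrial RNA granules, changed by 0.18. The adjusted p of these 4 ran from 0.00313 to 0.00489 by limma, and their groups did not overlap. Of 17 listed translation factors, 5 were higher and 1 was lower (35.3% called), with a median of 0.09. Gfm1, an elongation factor, rose by 0.25, Letm1, an inner membrane protein that binds these ribosomes, by 0.28 and Mrrf, the recycling factor, by 0.27, while Guf1, a GTPase related to bacterial LepA, changed by -0.26. Their adjusted p ran from 0.00150 to 0.00834 by limma. Of 19 listed genes of mitochondrial transcription and RNA processing, 4 were higher and none lower (21.1% called). These were Mtpap, the mitochondrial poly(A) polymerase (0.21), Mterf2 (0.71), the nuclease gene Prorp, listed as 1110008L16Rik (0.28), and the tRNA nuclease Elac2 (0.19). The transcription factor Tfam and the polymerase Polrmt, added after their values were seen, were not called, at -0.06 and 0.14.

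Other groups of genes are given beside the family for scale. Of 17 listed general mitochondrial genes, 9 were higher and 2 were lower, with a median log2 fold change of 0.16. Examples among those higher are Mfn2, which fuses outer membranes, at 0.62, the citrate synthase gene Cs at 0.42, Immt of the inner membrane at 0.38 and the protease gene Lonp1 at 0.38. Another 6 of the 17 were not called, and the lowest log2 fold change of the list was -0.22. Of 35 genes for subunits of respiratory complex I (symbols Nduf), 9 were higher and none lower, with a median of 0.09. Of 60 genes for proteins of the cytosolic ribosome, 1 was higher and 48 were lower, with a median of -0.31. Genes of the cytosolic ribosome have many near-identical copies in the genome, so their counts are uncertain. With a median of 0.03 (-0.0068 with total read scaling), the mitochondrial ribosomal protein genes lay between the complex I and the cytosolic ribosome genes. The share called was 64.7% of the general mitochondrial, 25.7% of the complex I and 81.7% of the cytosolic ribosome genes, beside 40.9% of all genes. The groups were not tested against each other.

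**Figure D4:**
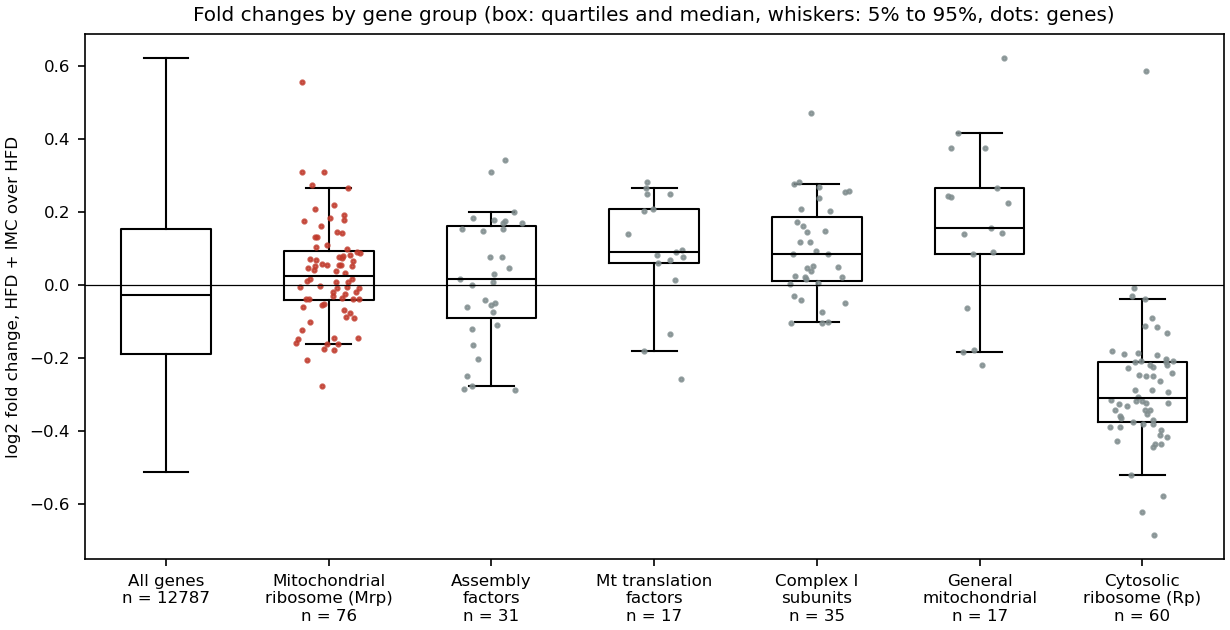
Log2 fold change (y axis, HFD + IMC over HFD) of all 12787 genes and of 6 groups of genes, with boxes for quartiles and median, whiskers from the 5th to the 95th percentile and a dot for each gene of a group. The mitochondrial ribosomal protein genes are spread narrowly around a median of 0.03 (-0.0068 with total read scaling), while the cytosolic ribosomal protein genes lie lower with a median of -0.31.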

How the data were processed

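RNA of 11 libraries (5 HFD, 6 HFD with IMC), made with a directional kit, was sequenced. According to the submitters' processing notes and the study's methods, the authors trimmed reads with Trim Galore, aligned and counted them with STAR on mm10, removed low transcripts and scaled by upper quartile in edgeR. The authors deposited log2 CPM values per gene and mouse. The log2 fold change, mean level, likelihood ratio, p-value and FDR columns of their own comparison were not used. The strand setting of the count is not given in the sources used here.

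Groups came from the treatment label. Genes were compared with limma 3.58.1 (R 4.3.3; lmFit, eBayes with trend, group alone) over all 12787 genes, with Benjamini-Hochberg adjustment. Positive values mean higher with IMC. Libraries were compared as separate mice, and no pair of the 55 agreed within counting noise. The low values step in whole reads plus a constant near 0.25 reads, which gave the depths of 22320022 to 25155366 reads on listed genes and the alternative scalings. Limma and the recovery of reads were tested on simulated data. Exact permutation tests used all 462 splits. Their p-values are unadjusted and are printed only for called members whose groups did not overlap. In such members the separation itself keeps the p-value near its smallest, so it adds no separate support. Positions, lengths and overlaps came from GENCODE M21 and promoter windows from RefSeq GRCm38.p6, the build of mm10.

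Members named are up to 8 with the smallest p called in each direction (8 higher, and all 7 called lower), the 5 largest changes, the Mrps18 paralogs, Mrps30, Mrps36, the 3 highest and lowest levels per length and the 3 smallest changes. From each other list of the pathway up to 4 called genes are named, and all 6 of the ribosomal proteins with other symbols. The members, the lists and the rule were chosen with earlier results of these data known. Alternatives were limma without the trend, median centring, total read and median of ratios scaling, limma voom, a constant of 2 reads, a minimum of 1 CPM in every mouse and leaving out each mouse.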

Additional observations from a re-analysis of the deposited data

Results flagged for a closer look

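Of 50 groups of mice examined over the named members for a single mouse standing apart (Dixon's ratio of gap to range), 1 passed its critical value. For Mrpl33, IMC mouse 5 had the lowest level of the IMC-treated mice, 5.21 log2 CPM, while the next lowest had 5.42 and the highest 5.53. The gap was 0.644 of the range, with a critical value of 0.625 for 6 mice. Chance gives such a result in about 1 in 20 groups. Without IMC mouse 5 the log2 fold change of Mrpl33 was -0.12 (adjusted p = 0.0684 by limma, Benjamini-Hochberg), against -0.16 with all mice.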

How the results depend on the processing

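Of the 18 called members, 14 were called in all 7 other settings that used every mouse, 12 in all 11 fits that left out a mouse, and 12 in both, and none changed sign in any of them. Of the 7 settings, only total read scaling and the fit without the trend lost calls among these members. The minimum of 1 CPM left their log2 fold changes as they were, so the settings are not separate support. Leaving out each mouse gave 4299 to 5125 calls over all genes, 9 to 13 members higher and 3 to 7 members lower. The count lower was 3 without HFD mouse 1, and 4 without HFD mouse 3 or without IMC mouse 5. Mrpl genes called higher ranged from 3 to 7 (3 without HFD mouse 3, IMC mouse 1, IMC mouse 2 or IMC mouse 6), Mrpl genes called lower from 3 to 6 (3 without HFD mouse 1 or IMC mouse 5), and Mrps genes called lower from 0 to 1. Total read scaling gave 3 Mrpl genes higher and 2 Mrps genes lower. It also moved the median log2 fold change of the members to -0.0068 and that of all genes to -0.06, so the sign of the members' median depends on the scaling. Its distance from the median of all genes was 0.05 under this scaling too. A change of scaling shifts all genes of a mouse by nearly the same amount, so it could not move this distance. Leaving out each mouse gave a median of the members from 0.0018 to 0.06 and a distance from 0.03 to 0.08. Why single mice moved these values was not tested. Of the members not called, 5 passed in at least 1 setting. No paired analysis was possible because the labels give the mice no shared numbers. Depth was lowest for Mrps36 (17 to 33 reads per mouse) and next for Mrps33 (83 to 115 reads per mouse). How far depth limits the other members was not tested. The p-values weigh the difference between the groups against the spread between these 11 mice.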
